A study of Homo sapiens and Mus musculus with 18 samples.

Results

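The 33 genes described here were 18 secreted fibroblast growth factor (FGF) ligands, the 4 intracellular FGFs, the 4 FGF receptors, 5 feedback inhibitors of the pathway and 2 transcription factors induced by it. They were chosen by name from the FGF family and its feedback loop, not by their values, although earlier results of these data were known. All 33 were found among the 63677 gene IDs of the single-library files and the 56299 of a second table. Levels are CPM, counts scaled to a common library size, in human cells made from WA09, an established human embryonic stem cell line. All cells descended from this 1 line, and nothing in the labels states that replicate libraries came from separate cultures, so p-values measure only the spread between these libraries. CPM does not correct for gene length, so levels are compared between groups and not between genes.

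MLC, mesothelium-like cells, were made from splanchnic mesoderm over 18 days in a chemically defined medium that, per the labels, lacked FGF2 and activin A and held retinoic acid (4 µM) and SB431542 (20 µM), an inhibitor of the TGF-beta receptor. MesoT FCS were MesoT cells moved into a medium with 10% serum and FGF2 (8 ng/ml) and sequenced at passage 4. Smooth muscle had been made from splanchnic mesoderm and kept for 16 to 18 days, in a medium the labels do not state. MesoT-derived MLC were MesoT cells replated into the MLC medium. MesoT, the mesothelium made from splanchnic mesoderm, was sequenced at day 22 and day 18. It had been given WNT3A (25 ng/ml), BMP4 (50 ng/ml) and retinoic acid (4 µM) in a defined medium whose listed components include FGF2 (8 ng/ml), activin A, IGF and heregulin. FGF2 was thus listed for the MesoT and MesoT FCS media and left out of both MLC media. The media differ in other components as well, and the parts these play cannot be told apart. Every group had 2 libraries except smooth muscle, which had 1, so 11 human RNA libraries of the 18 samples are described.

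FGF ligands bind receptor tyrosine kinases on the cell surface together with heparan sulfate, and the active receptor switches on the RAS to ERK cascade. That cascade induces its own brakes, among them the Sprouty proteins and the ERK phosphatase DUSP6, as well as the ETS factors ETV4 and ETV5, so transcripts of these genes are widely read as a record of recent pathway activity. In mouse embryos the mesothelium of the lung is a source of FGF9, which acts on the mesenchyme beneath it, while FGF7 and FGF10 made by mesenchyme act on epithelial FGFR2.

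Promoter sequences are given for a ligand (FGF2), a receptor (FGFR3) and 2 feedback genes. SPRY4 is shown because it was called between groups, and DUSP6 because its transcripts differed widely between replicates. Each is the 250 bases before the gene's start from RefSeq on GRCh38.p14, 5′ to 3′ on the gene's strand, with motif matches in capitals. The spans are chr4:122826581-122826830 (plus strand) for FGF2, chr4:1793043-1793292 (plus) for FGFR3, chr5:142324248-142324497 (minus) for SPRY4 and chr12:89352502-89352751 (minus) for DUSP6.
FGF2: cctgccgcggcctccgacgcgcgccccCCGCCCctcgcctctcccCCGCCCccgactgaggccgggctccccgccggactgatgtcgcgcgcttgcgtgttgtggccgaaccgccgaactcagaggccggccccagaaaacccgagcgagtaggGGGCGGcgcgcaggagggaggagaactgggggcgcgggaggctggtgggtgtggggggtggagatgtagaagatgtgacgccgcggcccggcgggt
FGFR3: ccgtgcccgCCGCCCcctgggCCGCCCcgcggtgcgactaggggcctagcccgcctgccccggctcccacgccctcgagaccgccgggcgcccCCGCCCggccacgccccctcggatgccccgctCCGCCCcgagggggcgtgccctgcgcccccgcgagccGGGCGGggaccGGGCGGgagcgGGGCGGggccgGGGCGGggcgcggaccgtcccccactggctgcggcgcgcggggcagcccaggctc
SPRY4: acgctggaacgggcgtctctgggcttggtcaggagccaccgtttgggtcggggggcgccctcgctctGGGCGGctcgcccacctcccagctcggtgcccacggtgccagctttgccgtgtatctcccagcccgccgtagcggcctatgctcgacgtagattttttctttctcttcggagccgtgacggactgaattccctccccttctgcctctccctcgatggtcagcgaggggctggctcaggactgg
DUSP6: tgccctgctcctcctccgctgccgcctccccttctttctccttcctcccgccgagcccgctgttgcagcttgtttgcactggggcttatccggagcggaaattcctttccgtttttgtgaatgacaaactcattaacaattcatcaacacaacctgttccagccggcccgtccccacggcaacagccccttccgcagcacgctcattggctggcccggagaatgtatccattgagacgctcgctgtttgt
The 4 motifs searched on both strands were the ETS-type sequence CCGGAA, the cyclic AMP response element TGACGTCA, the AP-1 motif TGANTCA and the GC box GGGCGG. Only the exact sequence CCGGAA was searched for ETS factors, so shorter or other ETS-type sites were not counted. The capitals mark GC boxes, of which FGF2 had 3, FGFR3 had 8 and SPRY4 had 1, and the DUSP6 window held no match. GC content was 86.8% for FGFR3, 75.2% for FGF2, 65.6% for SPRY4 and 57.2% for DUSP6. Of the 33 genes, 23 had a promoter entry, with 42 entries in all. A GC box stood in 21 of the 42 entries and in 42.64% of all 35116 promoter entries. The sequence CCGGAA stood in 2 of the 42 entries, those of SPRY1 and SPRY2, and in 14.53% of all promoter entries.

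Totals were 65709545 to 70679258 counts in MLC and 21148477 to 28982850 in the other single-library files, and 24137663 to 31435480 in the human table, so low genes were measured with more counts in MLC. The 2 sets were counted and normalised apart, and MesoT day 18 stood in both. For 16 of 22 FGF genes with enough counts both day 18 replicates had values in the 2 sets that differed by at most 0.5 on the log2 scale, and for FGF5, FGF7, FGF10, FGF11, FGF20 and FGFR4 they did not. Levels of these 6 genes are therefore compared only within a set, except in fits that took the day 18 counts from the human table. Those fits mix the 2 countings. In the libraries labelled MesoT FCS the mesothelial marker WT1 was at 5.58 and 3.41 CPM, against 25.9 and 46.2 CPM in MesoT day 18. UPK3B was at 0.714 and 0.0558 CPM, against 15.1 and 34.4 CPM. The sum of the 10 mesothelium markers did not fall with these 2. It was 6277 and 3115 CPM in MesoT FCS and 5190 CPM in smooth muscle, against 4663 and 2843 CPM in MesoT day 18. WT1 and UPK3B made up little of this sum, and the list also holds the keratins KRT8, KRT18 and KRT19. The sum therefore does not show that mesothelial identity was kept. In the library labelled smooth muscle, ACTA2 was at 269 CPM and WT1 at 0.0407 CPM. The 8 smooth muscle markers summed to 1137 CPM there, against 1655 and 279 CPM in MesoT day 18. In the same smooth muscle library the 5 stratified epithelium markers summed to 1540.2 CPM with KRT5 at 870.3 CPM, against sums of 13.8 and 11.3 CPM in MesoT day 18.

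Of the 33 genes, 10 stayed at or below 1 CPM in every library (FGF3, FGF4, FGF6, FGF8, FGF14, FGF16, FGF19, FGF21, FGF22 and FGF23), and FGF4 and FGF6 had no count in any. The filter on low counts left 22 genes for testing in the single-library files and 23 in the human table, where FGF17 was added. In all, 17 of the 23 genes tested in either set passed the threshold in at least 1 comparison, where 55.1% of all 26385 tested genes did, and 16 of the 33 were called in none. Calls follow edgeR's quasi-likelihood test with Benjamini-Hochberg adjustment over all tested genes, at an adjusted p under 0.05.

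MLC differed from MesoT day 18 in 11 of the 22 tested FGF genes, where 24.6% of all tested genes were called. FGFR3, FGFR4 and FGF7 rose, and FGF2, FGF5, FGF12, FGF13, SPRY4, SPRED1, ETV4 and ETV5 fell. Of all tested genes, 7.83% rose and 16.8% fell, and the median log2 fold change was -1.60 over the 22 FGF genes and -0.026 over all genes. The medians cover only genes that passed the filter on low counts and are given as a description. Many of these calls depended on 1 library. Without MLC replicate 1 FGF12 and FGFR3 kept their calls, with edgeR adjusted p between 0.0515 and 0.182 for the other 9. Without MLC replicate 2, FGF2, FGF13 and FGFR3 kept theirs, with edgeR adjusted p between 0.0616 and 0.160 for the other 8.

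MesoT FCS differed from MesoT day 18 in 12 of 22 tested FGF genes, beside 27.3% of all tested genes (13% higher and 14.4% lower). FGF1, FGF2, FGF5 and FGFR4 rose. FGF9, FGF10, FGF12, FGF13, FGF18, FGFR2, FGFR3 and SPRED1 fell. The median log2 fold change was -0.81 over the FGF genes and -0.16 over all genes. FGF2, FGF9 and FGFR2 kept their calls whichever library was left out. Without MesoT FCS replicate 1, 7 of the 12 calls were lost (edgeR adjusted p 0.0604 to 0.190), and without MesoT FCS replicate 2, 6 were lost. In MLC against MesoT FCS, 11 of 22 FGF genes were called, 5 higher and 6 lower, which is near the 48.9% of all tested genes called there (22.6% higher and 26.3% lower). Without MLC replicate 2 the 11 calls there became 7. Smooth muscle differed from MesoT day 18 in 2 FGF genes, FGF1 higher and FGF9 lower, where 8.67% of all tested genes were called (5.08% higher and 3.58% lower). Without MesoT day 18 replicate 1 smooth muscle had 7 called FGF genes and without replicate 2 it had 4, FGF9 among them in both. MesoT day 18 serves as reference in 3 of these comparisons, so their fold changes share its 2 libraries.

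**Figure D1:**
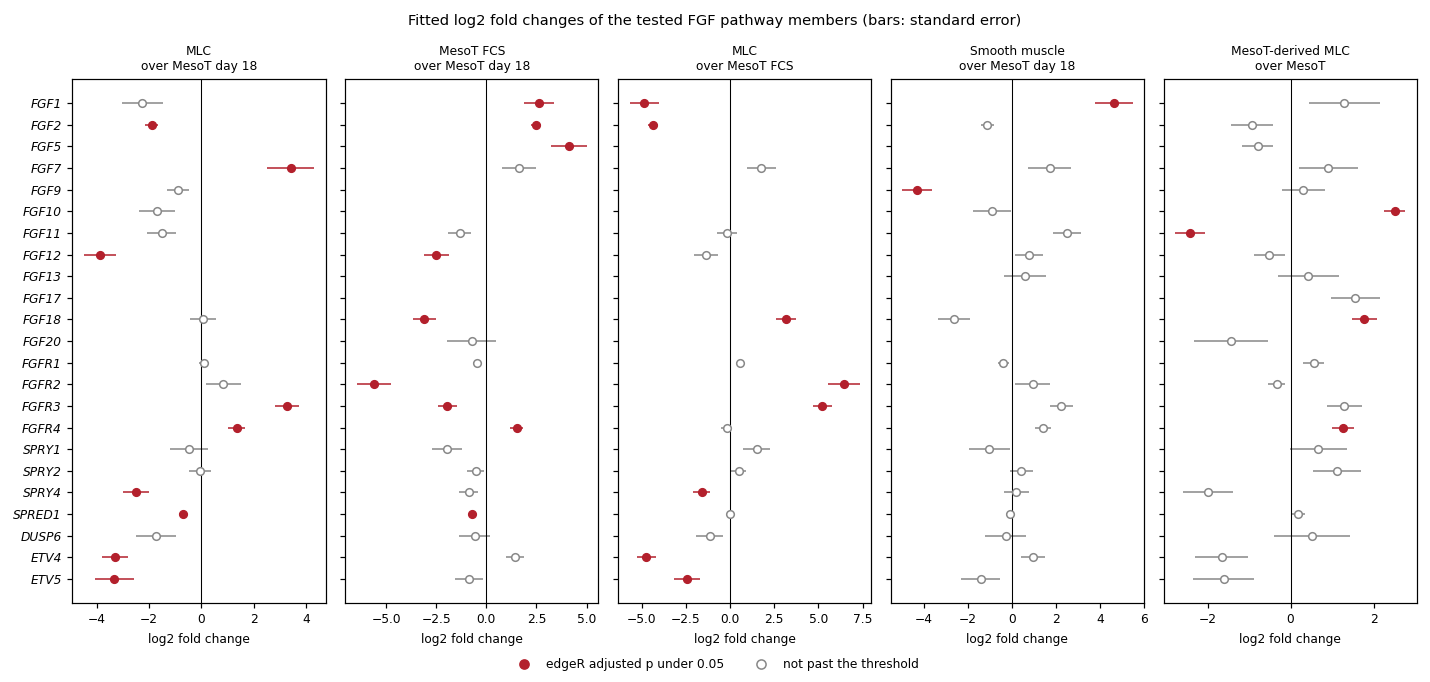
Log2 fold changes (x axis, ± standard error) of the FGF genes (y axis) for MLC, MesoT FCS and smooth muscle over MesoT day 18, MLC over MesoT FCS and MesoT-derived MLC over MesoT, with red for an edgeR adjusted p under 0.05 and open grey for the rest; genes with 3 or fewer counts in a group are not drawn. FGF2 stands at -1.89 for MLC over MesoT day 18 and at 2.48 for MesoT FCS over MesoT day 18, and FGFR1 is open in all 5.

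FGF2 (ENSG00000138685), a mitogen of mesenchymal cells and a support of pluripotent stem cells in culture, was detected in every library. It had 4.30 and 5.70 CPM in MLC, 108 and 98.2 CPM in MesoT FCS, 8.51 CPM in smooth muscle and 21.7 and 15.2 CPM in MesoT day 18. The MLC libraries lay below both MesoT day 18 libraries, and the MesoT FCS libraries above them, with no overlap. Means were 4.997 ± 0.991 CPM in MLC, 103 ± 6.77 CPM in MesoT FCS and 18.5 ± 4.56 CPM in MesoT day 18 (SD, n = 2 each). FGF2 fell in MLC (log2 fold change -1.89 ± 0.25, adjusted p = 0.00442 by edgeR) and rose in MesoT FCS (log2 fold change 2.48 ± 0.25, adjusted p = 0.00442 by edgeR) relative to MesoT day 18. Directly compared, MLC lay below MesoT FCS with log2 fold change -4.36 ± 0.27, adjusted p = 2.94e-04 by edgeR. The recombinant FGF2 of the medium is protein and adds no reads. In bulk libraries such as these, fewer cells of a type and less RNA per cell cannot be told apart. Without MLC replicate 1 the FGF2 call in MLC was lost. In the annotation FGF2 overlaps NUDT6, and the strand setting of the counting is not given in the sources used here, so reads of the 2 genes may be mixed.

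FGF1 (ENSG00000113578), which binds all FGF receptors, and FGF5 (ENSG00000138675), known as a brake on hair growth, were also high in serum medium. FGF1 had 0.344 and 0.214 CPM in MLC, 12.9 and 3.41 CPM in MesoT FCS and 33.3 CPM in smooth muscle, against 1.90 and 0.786 CPM in MesoT day 18. Every MesoT FCS and smooth muscle value lay above both MesoT day 18 values, although MesoT FCS replicate 1 was 3.80-fold above replicate 2. The 8 smooth muscle markers, all with counts, summed to 6199 and 1576 CPM in MesoT FCS replicates 1 and 2 and to 1137 CPM in smooth muscle. In MesoT day 18 they summed to 1655 and 279 CPM, and their part in the FGF1 and FGF5 results was not tested. FGF1 rose in MesoT FCS (log2 fold change 2.60 ± 0.75, adjusted p = 0.0486 by edgeR) and in smooth muscle (log2 fold change 4.62 ± 0.86, adjusted p = 0.0338 by edgeR). The MesoT FCS call of FGF1 was lost when either MesoT day 18 library was left out, and without MesoT FCS replicate 1. Without MesoT day 18 replicate 2 its edgeR adjusted p was 0.149 in MesoT FCS and 0.0683 in smooth muscle. MLC lay below MesoT FCS in FGF1 (log2 fold change -4.86 ± 0.83, adjusted p = 0.00558 by edgeR).

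FGF5 had 1 and 0 counts in MLC, 46.1 and 15.7 CPM in MesoT FCS, 0 in smooth muscle and 0.612 and 2.97 CPM in MesoT day 18. FGF5 rose in MesoT FCS (log2 fold change 4.11 ± 0.91, adjusted p = 0.0241 by edgeR). The single count in MLC gave a ratio to MesoT day 18 of 0.00390 with a 95% exact counting interval of 9.78e-05 to 0.0222 (edgeR adjusted p = 0.0137), which covers counting error only. In the human table the same labelled MesoT day 18 samples held 7.91 and 18.9 CPM of FGF5. With those counts the rise in MesoT FCS shrank to a log2 fold change of 1.53 with an edgeR adjusted p of 0.0814, and the fall in MLC remained. A day 18 level counted higher lowers the rise and enlarges the fall by itself, so this fit tests neither.

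FGF7 (ENSG00000140285, keratinocyte growth factor) ran the other way. It had 39.8 and 26.99 CPM in MLC, 9.51 and 10.00 CPM in MesoT FCS and 10.3 CPM in smooth muscle, against 0.644 and 5.60 CPM in MesoT day 18. Both MLC libraries stood above all others of the set, and FGF7 rose in MLC (log2 fold change 3.42 ± 0.90, adjusted p = 0.0403 by edgeR). The MesoT day 18 replicates differed widely in it, and the call was lost when either MLC library was left out. In MesoT FCS its higher mean did not pass the test (log2 fold change 1.64 ± 0.85, adjusted p = 0.189 by edgeR). FGF7 overlaps FAM227B and has near-identical partial copies in the genome, so its counts are uncertain.

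FGF9 (ENSG00000102678), the mesothelial ligand of mouse lung, was not detected in serum medium. It had 0 counts in both MesoT FCS libraries, against 373 and 744 counts in MesoT day 18. Taking 3 counts over the group as the floor, FGF9 was at least 249-fold lower in MesoT FCS than in MesoT day 18 (edgeR adjusted p = 0.00410), and at least 136-fold higher in MLC than in MesoT FCS (edgeR adjusted p = 0.00118). In MLC it was at 10.2 and 10.1 CPM and in smooth muscle at 0.936 CPM, against 12.0 and 25.4 CPM in MesoT day 18. The MLC values were lower on average but did not pass the test (log2 fold change -0.89 ± 0.42, adjusted p = 0.190 by edgeR), while FGF9 fell in smooth muscle (log2 fold change -4.32 ± 0.67, adjusted p = 0.0312 by edgeR). The 2 smooth muscle calls, FGF9 and FGF1, rest on 1 library that is assumed to vary like the other groups. With only the smooth muscle and MesoT day 18 libraries in the fit neither passed (edgeR adjusted p 0.138 for FGF9 and 0.113 for FGF1).

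FGF18 (ENSG00000156427), a ligand of skeletal and lung development, and FGF10 (ENSG00000070193), a mesenchymal ligand of branching organs, were low in MesoT FCS. FGF18 had 7.61 and 3.63 CPM in MLC, 0.625 and 0.614 CPM in MesoT FCS and 0.855 CPM in smooth muscle, against 7.09 and 3.62 CPM in MesoT day 18. The MLC and MesoT day 18 values overlapped and the MesoT FCS and smooth muscle values lay below them. In smooth muscle the lower level did not pass (log2 fold change -2.64 ± 0.73, adjusted p = 0.0765 by edgeR). FGF18 fell in MesoT FCS (log2 fold change -3.10 ± 0.58, adjusted p = 0.0159 by edgeR), and MLC lay above MesoT FCS (log2 fold change 3.17 ± 0.58, adjusted p = 0.00691 by edgeR). FGF10 had 0.370 and 0.541 CPM in MLC, 0.0893 and 0 CPM in MesoT FCS and 0.773 CPM in smooth muscle, against 1.87 and 1.06 CPM in MesoT day 18. It rested on 2 and 0 counts in the MesoT FCS libraries, against 58 and 31 in MesoT day 18, a ratio of 0.0336 with a 95% exact counting interval of 0.00401 to 0.125 (edgeR adjusted p = 0.0187). MLC held 66 counts of FGF10, a ratio to MesoT FCS of 9.12 (2.43 to 76.9, edgeR adjusted p = 0.0419). This last call was lost without MesoT FCS replicate 2 and without each MLC library, with edgeR adjusted p of at most 0.153, and FGF10 overlaps the antisense gene FGF10-AS1. FGF17 (ENSG00000158815) reached at most 1.61 CPM and FGF20 (ENSG00000078579) at most 1.09 CPM in any library, and neither was called in any comparison.

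**Figure D2:**
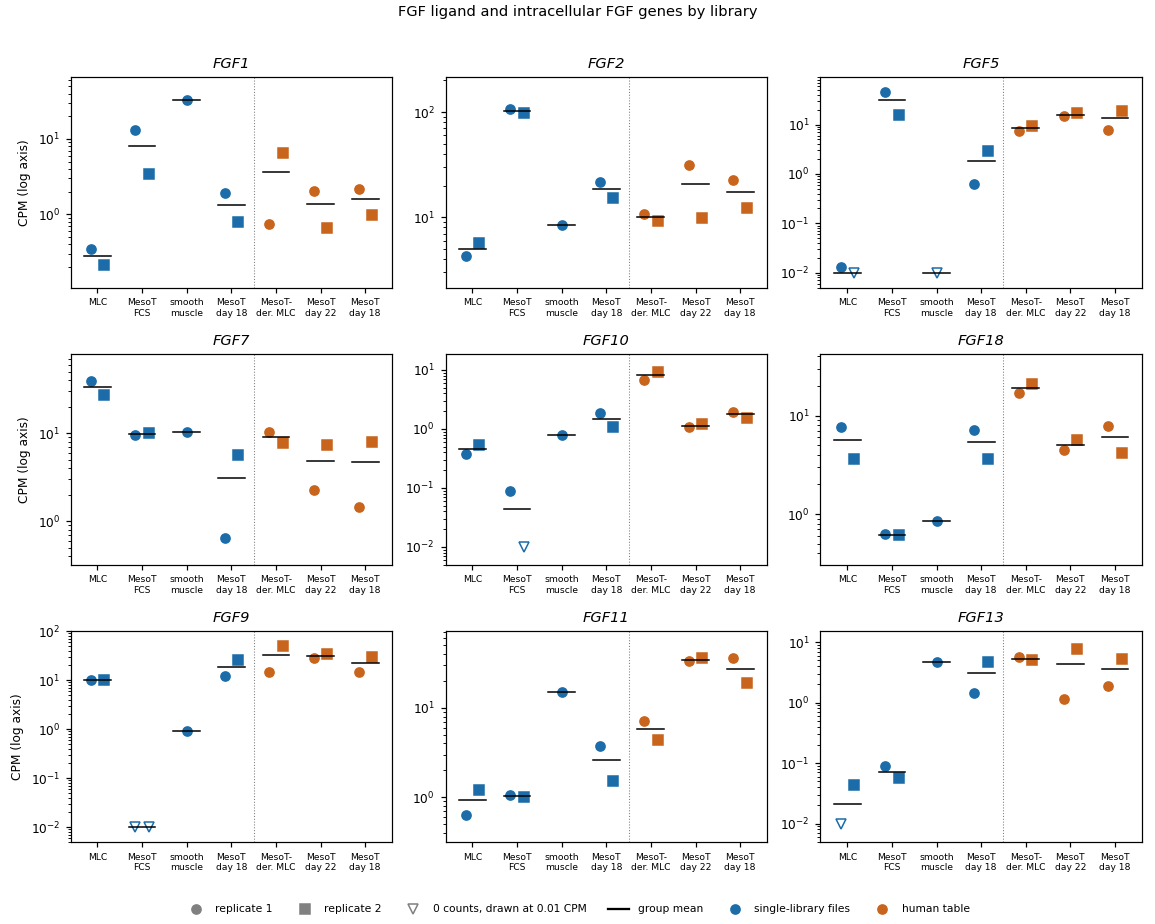
Level of 9 FGF genes in each library (y axis, CPM on a log scale) by group (x axis), blue for the single-library files and orange for the human table, which was normalised apart. Circles are replicate 1, squares replicate 2, black lines the group mean, and open triangles at 0.01 mark a library with 0 counts, such as FGF9 in MesoT FCS.

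The intracellular FGFs bind voltage-gated sodium channels. FGF12 (ENSG00000114279) had 0.132 and 0.0570 CPM in MLC, 0.223 and 0.279 CPM in MesoT FCS and 2.44 CPM in smooth muscle, against 1.71 and 1.16 CPM in MesoT day 18. It fell in MLC (log2 fold change -3.87 ± 0.62, adjusted p = 0.00847 by edgeR) and in MesoT FCS (log2 fold change -2.51 ± 0.62, adjusted p = 0.0325 by edgeR). FGF13 (ENSG00000129682) had 0 and 0.0427 CPM in MLC, 0.0893 and 0.0558 CPM in MesoT FCS and 4.72 CPM in smooth muscle, against 1.45 and 4.78 CPM in MesoT day 18. The MLC and MesoT FCS values rest on 3 counts in each group, against 185 in MesoT day 18. Its ratio to MesoT day 18 was 0.00670 (95% exact counting interval 0.00137 to 0.0199) in MLC and 0.0243 (0.00496 to 0.0720) in MesoT FCS, with edgeR adjusted p of 0.00887 and 0.0215. Both genes have antisense neighbours in the annotation, and without MesoT FCS replicate 1 or replicate 2 neither passed in MesoT FCS. FGF11 (ENSG00000161958) had 0.634 and 1.21 CPM in MLC, 1.07 and 1.01 CPM in MesoT FCS and 15.1 CPM in smooth muscle, against 3.74 and 1.54 CPM in MesoT day 18. Its higher level in smooth muscle did not pass (log2 fold change 2.51 ± 0.62, adjusted p = 0.0599 by edgeR). The human table counted FGF11 in the same labelled day 18 samples at 36.1 and 18.9 CPM, so its level in the single-library files is uncertain. FGF14 had at most 4 counts in any library.

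Of the 4 receptors, FGFR2, FGFR3 and FGFR4 were called in at least 1 comparison and FGFR1 in none. FGFR1 (ENSG00000077782), the usual receptor of mesenchymal cells, had 216 and 231 CPM in MLC, 149 and 156 CPM in MesoT FCS, 158 CPM in smooth muscle and 178 and 239.8 CPM in MesoT day 18. Its log2 fold change was 0.098 ± 0.20 in MLC and -0.45 ± 0.20 in MesoT FCS (edgeR adjusted p = 0.751 and 0.137).

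FGFR2 (ENSG00000066468) is spliced into a form for epithelia and a form for mesenchyme, which gene counts do not separate. It had 57.5 and 84.0 CPM in MLC, 1.47 and 0.0558 CPM in MesoT FCS and 75.9 CPM in smooth muscle, against 34.9 and 43.9 CPM in MesoT day 18. The MesoT FCS libraries held 33 and 1 counts, far below every other library. FGFR2 fell in MesoT FCS (log2 fold change -5.61 ± 0.87, adjusted p = 0.0101 by edgeR) and lay higher in MLC than in MesoT FCS (log2 fold change 6.45 ± 0.89, adjusted p = 0.00279 by edgeR). Its difference between MLC and MesoT day 18 did not pass (log2 fold change 0.84 ± 0.66, adjusted p = 0.394 by edgeR). ESRP1, a splicing factor that favours the epithelial exon of FGFR2, had 2 counts in MesoT FCS, against 1963 in MesoT day 18, a ratio of 0.00152 (95% exact counting interval 0.000184 to 0.00551). Its relative ESRP2 had 0.491 and 0.223 CPM in MesoT FCS, against 16.0 and 21.6 CPM in MesoT day 18. The part of a changed share of epithelial cells in the FGFR2 result was not tested.

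FGFR3 (ENSG00000068078), a receptor that restrains bone growth, had 125 and 128 CPM in MLC, 4.91 and 1.79 CPM in MesoT FCS and 61.9 CPM in smooth muscle, against 16.0 and 10.0 CPM in MesoT day 18. The groups did not overlap, with MLC highest and MesoT FCS lowest. FGFR3 rose in MLC 9.68-fold (log2 fold change 3.28 ± 0.47, adjusted p = 0.00608 by edgeR), the only call of that comparison kept in every alternative fit, and fell in MesoT FCS (log2 fold change -1.94 ± 0.47, adjusted p = 0.0308 by edgeR). MLC lay above MesoT FCS (log2 fold change 5.22 ± 0.53, adjusted p = 0.00104 by edgeR). In smooth muscle its higher level did not pass (log2 fold change 2.25 ± 0.51, adjusted p = 0.0513 by edgeR). Beside the rise of FGFR3 in MLC, the 6 hepatocyte markers, all with counts in both libraries, summed to 129 and 54.7 CPM in MLC, against 0.677 and 2.56 CPM in MesoT day 18. Most of that sum was AFP, at 84.6 and 34.2 CPM in MLC, and ALB was at 1.72 and 0.883 CPM. The part of such cells in the result was not tested.

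FGFR4 (ENSG00000160867), the hepatocyte receptor for endocrine FGF19, had 4.996 and 4.66 CPM in MLC, 6.30 and 4.58 CPM in MesoT FCS and 5.01 CPM in smooth muscle, against 1.77 and 2.02 CPM in MesoT day 18. All values of the 3 other groups lay above both MesoT day 18 values. It rose in MLC (log2 fold change 1.35 ± 0.32, adjusted p = 0.0305 by edgeR) and in MesoT FCS (log2 fold change 1.52 ± 0.32, adjusted p = 0.0218 by edgeR). The human table counted the same labelled day 18 samples at 3.25 and 4.33 CPM. With those counts neither rise passed (edgeR adjusted p = 0.153 in MLC and 0.0762 in MesoT FCS). A day 18 level counted higher lowers both rises by itself, so this fit cannot show whether the cells differ. The hepatocyte markers summed to 0.0893 and 0.223 CPM in MesoT FCS, with ALB and TTR at 0.

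**Figure D3:**
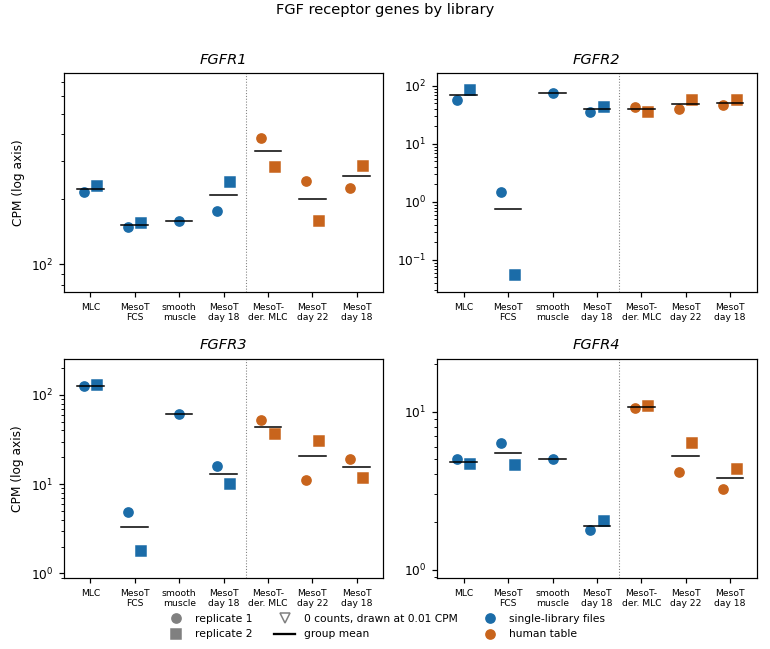
Level of the 4 FGF receptors in each library (y axis, CPM on a log scale) by group (x axis), blue for the single-library files and orange for the human table, with circles for replicate 1, squares for replicate 2 and black lines for the mean. FGFR1 stays between 149 and 386 CPM, whereas FGFR2 drops to 1.47 and 0.0558 CPM in MesoT FCS.

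Among the feedback genes, SPRY4, ETV4 and ETV5 were lowest in MLC. SPRY4 (ENSG00000187678), a Sprouty inhibitor of the RAS to ERK cascade, had 11.4 and 11.04 CPM in MLC, 42.5 and 25.6 CPM in MesoT FCS and 72.8 CPM in smooth muscle, against 91.7 and 34.7 CPM in MesoT day 18. Both MLC libraries lay below all other libraries of the set. SPRY4 fell in MLC against MesoT day 18 (log2 fold change -2.49 ± 0.50, adjusted p = 0.0179 by edgeR) and was lower in MLC than in MesoT FCS (log2 fold change -1.60 ± 0.48, adjusted p = 0.0371 by edgeR). The second call was lost when either MLC library or MesoT FCS replicate 1 was left out (edgeR adjusted p 0.147 to 0.162).

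ETV4 (ENSG00000175832), an ETS factor of the PEA3 group, had 1.11 and 1.41 CPM in MLC, 29.5 and 38.3 CPM in MesoT FCS and 24.3 CPM in smooth muscle, against 18.08 and 6.97 CPM in MesoT day 18. It fell in MLC (log2 fold change -3.31 ± 0.50, adjusted p = 0.00696 by edgeR). The higher MesoT FCS level did not pass against MesoT day 18 (log2 fold change 1.43 ± 0.46, adjusted p = 0.0641 by edgeR), while MLC lay below MesoT FCS (log2 fold change -4.75 ± 0.53, adjusted p = 0.00140 by edgeR).

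ETV5 (ENSG00000244405), of the same group, had 9.78 and 10.4 CPM in MLC, 48.2 and 61.0 CPM in MesoT FCS and 37.4 CPM in smooth muscle, against 169.9 and 31.6 CPM in MesoT day 18. It fell in MLC (log2 fold change -3.32 ± 0.75, adjusted p = 0.0264 by edgeR) and was lower in MLC than in MesoT FCS (log2 fold change -2.43 ± 0.73, adjusted p = 0.0352 by edgeR). The ETV5 call against MesoT FCS was lost whichever of the 4 libraries was left out (edgeR adjusted p 0.0789 to 0.154). The SPRY4 and ETV5 calls of MLC against MesoT day 18 were lost when either MLC library was left out, as was that of ETV4, with edgeR adjusted p of at most 0.130 for SPRY4, 0.165 for ETV5 and 0.0735 for ETV4. ETV4 overlaps DHX8, ETV5 overlaps ETV5-AS1 and SPRY4 overlaps SPRY4-IT1 in the annotation.

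Of the other feedback genes only SPRED1 was called. SPRED1 (ENSG00000166068), which holds RAS inactive together with neurofibromin, had 53.7 and 56.7 CPM in MLC, 59.5 and 51.8 CPM in MesoT FCS and 85.7 CPM in smooth muscle, against 87.9 and 93.6 CPM in MesoT day 18. It fell in MLC (log2 fold change -0.72 ± 0.15, adjusted p = 0.0218 by edgeR) and in MesoT FCS (log2 fold change -0.70 ± 0.15, adjusted p = 0.0229 by edgeR), the smallest change among the called FGF genes of both comparisons. DUSP6 (ENSG00000139318), the cytoplasmic ERK phosphatase, had 9.60 and 15.9 CPM in MLC, 15.49 and 41.1 CPM in MesoT FCS and 34.7 CPM in smooth muscle, against 69.3 and 15.48 CPM in MesoT day 18. Its mean was lowest in MLC. The MesoT day 18 replicates differed more than the group means did, and DUSP6 did not pass in MLC (log2 fold change -1.73 ± 0.78, adjusted p = 0.159 by edgeR) or in MesoT FCS (log2 fold change -0.59 ± 0.77, adjusted p = 0.585 by edgeR). SPRY1 (ENSG00000164056) and SPRY2 (ENSG00000136158) passed in no comparison. SPRY2 had 41.3 and 36.2 CPM in MLC, 26.8 and 28.4 CPM in MesoT FCS and 54.3 CPM in smooth muscle, against 58.4 and 22.0 CPM in MesoT day 18. SPRY1 had 21.3 and 17.8 CPM in MLC, 11.2 and 2.57 CPM in MesoT FCS and 13.3 CPM in smooth muscle, against 39.5 and 14.6 CPM in MesoT day 18.

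Replicates of MesoT differed in most of the feedback genes, with SPRED1 nearly even at day 18. At day 18, 6 of the 7 feedback and ETS genes were higher in replicate 1, with ratios of replicate 1 to replicate 2 between 0.940 and 5.37 in the single-library files. At day 22 all 7 were higher in replicate 1, with ratios between 1.09 and 3.06. The 8 smooth muscle markers moved the same way, with sums of 1655 and 279 CPM in replicates 1 and 2 at day 18 and 1512 and 272 CPM at day 22, and ACTA2 at 515 and 80.7 CPM at day 18. All 8 had counts in each of these libraries. Their part in the replicate difference was not tested. In MLC 3 of the 7 genes were higher in replicate 1, with ratios between 0.602 and 1.20, and in MesoT FCS 3 of 7, with ratios between 0.377 and 4.36. The share of all tested genes higher in replicate 1 was not computed, so these counts are a description only. Over all tested genes the replicate differences of day 18 and day 22 correlated at 0.557, so the day 22 count does not stand apart from that of day 18.

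**Figure D4:**
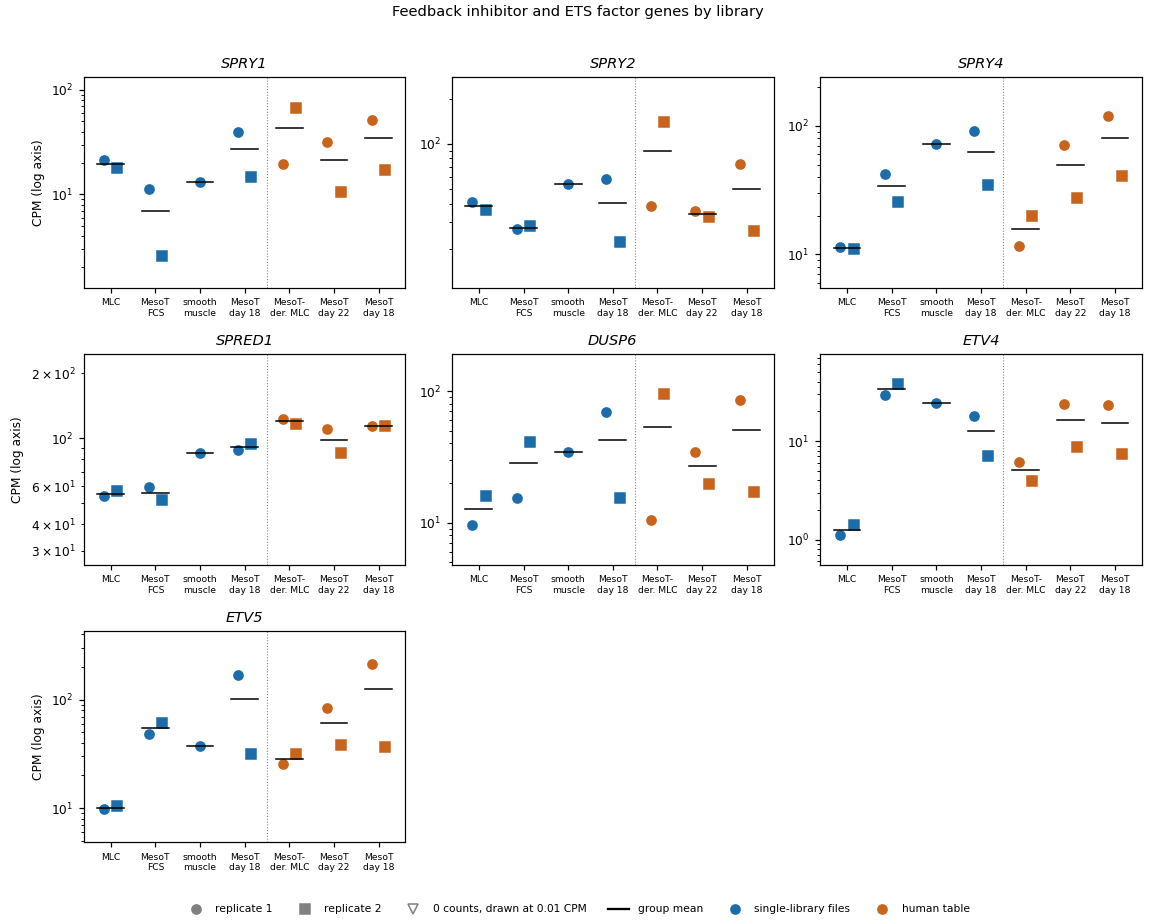
Level of the 5 feedback inhibitors and 2 ETS factors in each library (y axis, CPM on a log scale) by group (x axis), blue for the single-library files and orange for the human table, with circles for replicate 1, squares for replicate 2 and black lines for the mean. For ETV5 the MesoT day 18 circles stand well above the squares, and both MLC points lie at about 10 CPM.

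MesoT-derived MLC were compared with MesoT of both days within the human table. Of 23 tested FGF genes 4 were called, beside 9.94% of all tested genes (6.63% higher and 3.32% lower). FGF10, FGF18 and FGFR4 rose and FGF11 fell. FGF10 had 6.80 and 9.24 CPM in MesoT-derived MLC, against 1.07 and 1.20 CPM at day 22 and 1.96 and 1.54 CPM at day 18 of MesoT (log2 fold change 2.51 ± 0.26, adjusted p = 0.0127 by edgeR). FGF18 had 16.9 and 21.1 CPM in MesoT-derived MLC, against 4.50 and 5.67 CPM at day 22 and 7.87 and 4.14 CPM at day 18 (log2 fold change 1.78 ± 0.30, adjusted p = 0.0271 by edgeR). For both ligands the MesoT-derived MLC libraries lay above all 4 MesoT libraries.

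FGFR4 had 10.6 and 10.9 CPM in MesoT-derived MLC, against 4.13 and 6.32 CPM at day 22 and 3.25 and 4.33 CPM at day 18 (log2 fold change 1.27 ± 0.27, adjusted p = 0.0404 by edgeR). FGF11 had 7.11 and 4.42 CPM in MesoT-derived MLC, against 33.3 and 35.9 CPM at day 22 and 36.1 and 18.9 CPM at day 18 (log2 fold change -2.42 ± 0.37, adjusted p = 0.0219 by edgeR). None of the 4 calls was kept whichever library was left out. Without MesoT-derived MLC replicate 2 no call remained (edgeR adjusted p 0.110 to 0.223), nor when either day 22 library was left out (0.0521 to 0.106). The hepatocyte markers summed to 85.6 and 199.6 CPM in MesoT-derived MLC, against 1.93 and 3.85 CPM at day 22 and 1.37 and 3.48 CPM at day 18, and their part in the FGFR4 result was not tested. The 8 markers of undifferentiated stem cells summed to 2646 and 3129 CPM in MesoT-derived MLC, against 509 and 862 CPM at day 22 and 478 and 863 CPM at day 18. Nearly all of that sum was PODXL, which other cell types also express, at 2587 and 3088 CPM in MesoT-derived MLC, while the defining marker POU5F1 was at 4.13 and 6.30 CPM there, against 5.70 and 19.4 CPM at day 22 and 9.50 and 12.8 CPM at day 18. Their part in the 4 calls was not tested.

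FGF2 did not pass in MesoT-derived MLC, where it had 10.7 and 9.17 CPM, against 31.4 and 9.85 CPM at day 22 and 22.8 and 12.2 CPM at day 18 of MesoT (log2 fold change -0.93 ± 0.51, adjusted p = 0.273 by edgeR). SPRY4 had 11.7 and 20.0 CPM in MesoT-derived MLC, against 71.3 and 27.6 CPM at day 22 and 120.3 and 41.0 CPM at day 18 (log2 fold change -1.99 ± 0.61, adjusted p = 0.0908 by edgeR). Its values lay below all 4 MesoT libraries without passing the test. ETV4 had 6.15 and 3.90 CPM in MesoT-derived MLC, against 23.9 and 8.79 CPM at day 22 and 23.4 and 7.34 CPM at day 18 (log2 fold change -1.66 ± 0.64, adjusted p = 0.145 by edgeR). ETV5 had 25.5 and 31.7 CPM in MesoT-derived MLC, against 83.6 and 37.9 CPM at day 22 and 214 and 36.9 CPM at day 18 (log2 fold change -1.61 ± 0.73, adjusted p = 0.197 by edgeR). In both ETS factors the MesoT-derived MLC values lay below all 4 MesoT libraries without a call. Of the 19 tested FGF genes not called here, 6 had groups that did not overlap. The share over all genes was not computed, so this is a description only. Whether the response of these genes differs between MLC and MesoT-derived MLC was not tested.

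The remaining called genes of the single-library files did not pass in this comparison. FGFR3 had 51.8 and 36.4 CPM in MesoT-derived MLC, against 11.2 and 30.6 CPM at day 22 and 19.1 and 11.8 CPM at day 18 (log2 fold change 1.29 ± 0.42, adjusted p = 0.102 by edgeR). SPRED1 had 123 and 117 CPM in MesoT-derived MLC, against 111 and 85.2 CPM at day 22 and 113 and 114 CPM at day 18 (log2 fold change 0.18 ± 0.16, adjusted p = 0.485 by edgeR). In both genes the MesoT-derived MLC libraries lay above all 4 MesoT libraries. FGFR2 had 42.8 and 35.8 CPM in MesoT-derived MLC, against 40.1 and 56.4 CPM at day 22 and 46.0 and 56.0 CPM at day 18 (log2 fold change -0.34 ± 0.20, adjusted p = 0.314 by edgeR), with overlapping groups.

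Among the ligands, FGF1 had 0.752 and 6.47 CPM in MesoT-derived MLC, against 2.07 and 0.654 CPM at day 22 and 2.18 and 0.9904 CPM at day 18 (log2 fold change 1.29 ± 0.86, adjusted p = 0.351 by edgeR). FGF5 had 7.55 and 9.31 CPM in MesoT-derived MLC, against 14.8 and 16.9 CPM at day 22 and 7.91 and 18.9 CPM at day 18 (log2 fold change -0.79 ± 0.38, adjusted p = 0.214 by edgeR). In both ligands the groups overlapped. FGF7 had 10.3 and 7.84 CPM in MesoT-derived MLC, against 2.30 and 7.45 CPM at day 22 and 1.44 and 8.07 CPM at day 18 (log2 fold change 0.91 ± 0.72, adjusted p = 0.429 by edgeR). FGF9 had 14.49 and 50.1 CPM in MesoT-derived MLC, against 27.7 and 34.9 CPM at day 22 and 14.45 and 29.4 CPM at day 18 (log2 fold change 0.30 ± 0.52, adjusted p = 0.726 by edgeR). These groups overlapped too, as did those of the intracellular FGF12 and FGF13. FGF12 had 1.23 and 0.924 CPM in MesoT-derived MLC, against 0.933 and 1.60 CPM at day 22 and 2.22 and 1.54 CPM at day 18 (log2 fold change -0.51 ± 0.37, adjusted p = 0.389 by edgeR). FGF13 had 5.60 and 5.03 CPM in MesoT-derived MLC, against 1.17 and 7.59 CPM at day 22 and 1.88 and 5.28 CPM at day 18 (log2 fold change 0.43 ± 0.74, adjusted p = 0.728 by edgeR).

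The MesoT-derived MLC replicates differed from each other in the feedback genes. DUSP6 had 10.5 and 95.5 CPM in replicates 1 and 2, SPRY1 had 19.6 and 66.6 CPM and SPRY2 had 38.5 and 140.1 CPM. Replicate 2 was thus higher in these 3 genes. Across the 7 feedback and ETS genes the ratio of replicate 1 to replicate 2 ran between 0.110 and 1.58. FGF1 and FGF9, given above, were also higher in replicate 2.

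No FGF gene passed between day 22 and day 18 of MesoT. No other gene passed in edgeR (0% of 22316 tested genes) or in DESeq2, with 171 genes and none of the 23 FGF genes at an unadjusted edgeR p under 0.05. FGF2, for example, had 31.4 and 9.85 CPM at day 22 and 22.8 and 12.2 CPM at day 18 (log2 fold change 0.24 ± 0.57), and FGFR3 had 11.2 and 30.6 CPM at day 22 and 19.1 and 11.8 CPM at day 18 (0.43 ± 0.51). Differences of this size were within the spread of these replicates in a fit without pairing. Over all tested genes the replicate differences of day 18 and day 22 correlated at 0.557. The unpaired test counts such a shared difference as spread, so it can miss a change between the days.

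A list of 53 other genes of the pathway (co-receptors, adaptors, the RAS to ERK cascade, further feedback, ERK outputs, heparan sulfate enzymes and ESRP1 and ESRP2) was followed, of which 52 were tested. In MLC against MesoT day 18, 6 rose and 2 fell, beside 7.83% and 16.8% of all tested genes, with a median log2 fold change of -0.021. SOS2, which loads RAS with GTP, had 91.4 and 88.9 CPM in MLC, against 43.7 and 44.4 CPM in MesoT day 18 (log2 fold change 1.03 ± 0.18, adjusted p = 0.0120 by edgeR). The docking protein GAB1 had 55.9 and 59.1 CPM in MLC, against 24.3 and 34.4 CPM in MesoT day 18 (log2 fold change 0.97 ± 0.21, adjusted p = 0.0233 by edgeR). PLCG1, a phospholipase bound by FGF receptors, rose too (log2 fold change 0.77 ± 0.17, adjusted p = 0.0262 by edgeR), and SPRED3, a relative of SPRED1, fell (log2 fold change -2.01 ± 0.50, adjusted p = 0.0346 by edgeR).

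In MesoT FCS against MesoT day 18, 10 of the 52 rose and 10 fell, beside 13% and 14.4% of all tested genes, with a median of 0.24. Besides ESRP1, ESRP2 fell (log2 fold change -5.67 ± 0.38, adjusted p = 0.00226 by edgeR). FLRT3, a membrane protein that binds FGF receptors, fell to 11.1 and 9.05 CPM in MesoT FCS, against 76.5 and 149 CPM in MesoT day 18 (log2 fold change -3.49 ± 0.36, adjusted p = 0.00464 by edgeR). MYC, a growth gene downstream of ERK, rose to 145 and 149 CPM in MesoT FCS, against 21.9 and 10.5 CPM in MesoT day 18 (log2 fold change 3.18 ± 0.38, adjusted p = 0.00597 by edgeR). In MLC against MesoT FCS 14 were higher and 14 lower, near the 48.9% of all tested genes called there, with a median of -0.20.

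In smooth muscle against MesoT day 18, 3 of the 52 rose and 1 fell, near the 8.67% of all tested genes called there, with a median of 0.20. FLRT3 fell to 10.3 CPM in smooth muscle, against 76.5 and 149 CPM in MesoT day 18 (log2 fold change -3.46 ± 0.49, adjusted p = 0.0216 by edgeR). ESRP1 had 113 CPM in smooth muscle, against 30.7 and 34.6 CPM in MesoT day 18 (log2 fold change 1.80 ± 0.35, adjusted p = 0.0368 by edgeR), ESRP2 rose (log2 fold change 1.47 ± 0.33, adjusted p = 0.0496 by edgeR), and so did MAPK3, which encodes ERK1 (log2 fold change 1.29 ± 0.28, adjusted p = 0.0472 by edgeR). The stratified epithelium markers given above for the smooth muscle library stand beside the 2 ESRP values, and their part was not tested.

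In MesoT-derived MLC against MesoT, 5 of the 52 rose and 1 fell, near the 9.94% of all tested genes called there, with a median of 0.11. EPHA4, an ephrin receptor, fell (log2 fold change -1.94 ± 0.30, adjusted p = 0.0232 by edgeR). MYC had 45.9 and 106 CPM in MesoT-derived MLC, against 8.23 and 10.5 CPM at day 22 and 25.3 and 13.1 CPM at day 18 (log2 fold change 2.496 ± 0.39, adjusted p = 0.0236 by edgeR). DUSP5, a nuclear ERK phosphatase, had 21.4 and 121 CPM in MesoT-derived MLC, against 3.87 and 4.58 CPM at day 22 and 7.98 and 2.46 CPM at day 18 (log2 fold change 3.92 ± 0.72, adjusted p = 0.0319 by edgeR). FLRT1 rose as well (log2 fold change 2.30 ± 0.39, adjusted p = 0.0271 by edgeR). None of the 52 was called between day 22 and day 18 in edgeR, nor was any at an unadjusted p under 0.05.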

How the data were processed

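Poly-A RNA of 11 human libraries was analysed. The authors deposited a whole-number read count for each Ensembl gene ID. The build hg19 and the tools featureCounts, Subread 1.4.2, Bowtie2 2.2.9 and TopHat2 2.0.13 are named in the submitters' processing notes. Neither the annotation release nor the strand setting is given in these sources. The 3 chromatin samples and the 4 mouse columns were not analysed here.

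CPM were computed with edgeR 4.0.16 in R 4.3.3 from TMM library sizes, for the 7 single-library files and for the 6 columns of the human table apart. Genes kept by filterByExpr were tested with the quasi-likelihood F test over all libraries of a set (3 residual degrees of freedom), with Benjamini-Hochberg adjustment over all of them. MesoT-derived MLC were set against the mean of day 18 and day 22. Errors of fold changes are standard errors from the F statistic. A group with 0 counts was given a floor of 3 counts over the group, and ratios resting on 1 to 3 counts a 95% exact binomial interval, both for counting error only. Tests were checked on simulated counts with known changes. For MLC against MesoT day 18, 0 of 68 genes changed by 1 on the log2 scale were called. At changes of 2 and 3, 39.4% and 69.7% were called. For MesoT-derived MLC against MesoT, 1.47%, 53% and 87.9% were called at changes of 1, 2 and 3. For MLC the simulation changed only 68, 66 and 66 of 21736 genes, whereas the real fit called 24.6% of tested genes. The adjustment is stricter where few genes change, so these rates do not carry over to the real fits. There SPRED1 was called in MLC at a log2 fold change of -0.72. A gene that did not pass is still not shown to be unchanged. DESeq2 1.42.0, other normalization, no filter, a replicate block, fits of only the groups compared, each library left out and the day 18 counts of the human table were tried. Promoters and gene names came from RefSeq tables, and figures from matplotlib 3.10.9.

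The 33 genes and the lists of pathway genes and cell type markers were chosen with earlier results of these data known. All 33 are accounted for, values in every library are given for those called in any comparison and for those on which the order of levels turns, and at most 4 pathway genes per comparison, those called with the smallest adjusted p, are named. Marker genes, ESRP1 in MesoT FCS and uncalled values were added beside the results they touch.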

Additional observations from a re-analysis of the deposited data

How the results depend on the processing

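Of the gene calls recomputed under each alternative, 308 kept their direction and side of the threshold, 77 kept their direction without passing and none reversed. RLE size factors lost no call of an FGF gene. With each library left out in turn the number of FGF genes called ranged from 2 to 14 (all genes 1714 to 6601) in MLC against MesoT day 18, 5 to 15 (2783 to 7845) in MesoT FCS against MesoT day 18, 7 to 10 (4962 to 8507) in MLC against MesoT FCS, 4 to 7 (2339 to 4292) in smooth muscle and 0 to 5 (0 to 2995) in MesoT-derived MLC. With only the compared groups in the fit, MesoT FCS against MesoT day 18 gave 7 FGF genes (3253 genes in all) and smooth muscle 0 (0 in all, with 1 library against 2). For MesoT-derived MLC that fit is the main one and was not run apart. When MesoT day 18 was taken from the human table, 9237 genes were called for MLC, 12757 for MesoT FCS and 7935 for smooth muscle, with 5 FGF genes in the last. These fits set day 18 from 1 counting against libraries from the other, so their calls include counting differences. DESeq2 called 8 FGF genes (4614 genes) in smooth muscle and 7 (4325) in MesoT-derived MLC, and without the filter smooth muscle had 6 FGF genes. The causes were not tested beyond the fewer libraries of some fits. Genes under about 1 CPM rest on few counts, which limits their fold changes.

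With the replicate number as a block, no call of an FGF gene was lost in MesoT FCS against MesoT day 18, in smooth muscle or in MesoT-derived MLC. Smooth muscle then had 3 FGF genes called (1173 genes in all). FGF7 and FGFR4 in MLC (edgeR adjusted p 0.0537 and 0.0530) and FGF10 in MLC against MesoT FCS (0.0624) lost their calls under the block. Nothing in the labels says that equal numbers share a batch, and same-numbered differences correlated at 0.557 between MesoT day 18 and day 22 but at -0.0636 to 0.0730 between other groups, so the numbers were not taken as pairs.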

Other observations

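The immediate-early genes, which ERK switches on within minutes and which many stimuli induce, were listed with the pathway but fall outside the genes named above, and were chosen here after their values were seen. EGR1 had 699 and 671 CPM in MLC and 77.4 and 554 CPM in MesoT FCS, against 43.9 and 6.80 CPM in MesoT day 18 (MLC against MesoT day 18: log2 fold change 4.76 ± 1.24, adjusted p = 0.0402 by edgeR). Both MLC libraries, whose SPRY4, ETV4 and ETV5 were low, thus stood above both MesoT day 18 libraries in EGR1. FOS had 282 and 302 CPM in MLC and 11.5 and 233 CPM in MesoT FCS, against 11.9 and 3.52 CPM in MesoT day 18. The MesoT FCS replicates differed widely in both genes. MesoT-derived MLC also split, with EGR1 at 19.1 and 1316 CPM and FOS at 4.99 and 813 CPM in replicates 1 and 2, and replicate 2 was also the one with the higher DUSP6, SPRY1 and SPRY2.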
